A study of Mus musculus with 2 samples.

Results

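The nuclear genes of the mitochondrial respiratory chain were examined in a Myc-Tag chromatin immunoprecipitation followed by sequencing (ChIP-seq) of a mouse Lck-Dlx5 T-cell lymphoma, which the study used to look for genes bound by Dlx5. They were chosen by name, as the autosomal protein-coding genes of RefSeq whose symbol begins with Nduf, Sdh, Uqcr, Cox followed by a number, or Atp5. This gave 106 of 20665 autosomal protein-coding genes, with 47 in complex I, 8 in complex II, 8 in complex III, 26 in complex IV and 17 in complex V. The complex was taken from the symbol, so that Ndufa4, now known to sit in complex IV, was counted with complex I.

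In Lck-Dlx5 mice the Lck promoter drives a Myc-tagged Dlx5 homeoprotein in thymocytes, and an antibody against the tag was used to recover the DNA bound by the transgene's product. The series holds 1 library of the Myc-Tag ChIP and 1 of input, the sheared chromatin before enrichment with the antibody. The sample labels give a primary tumor, with the strain as C57BL/6 for the ChIP and C57BL/7 for the input, whereas the methods name a cell line made from a Lck-Dlx5 lymphoma, so the cells of a single tumor, and an IgG control. The age and sex of the animal are not given in the sources used here, and no replicate of either library was analysed. The ChIP had 3477 called intervals, the input had 28, and read totals are unknown, so that no difference in height could be checked against a replicate.

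The respiratory chain is the set of protein complexes in the inner mitochondrial membrane that carries electrons from NADH and succinate to oxygen and uses the resulting proton gradient to make ATP. Complex I (NADH dehydrogenase), complex II (succinate dehydrogenase) and complex III (the cytochrome bc complex) pass electrons on to complex IV (cytochrome c oxidase), and complex V is the ATP synthase. Most subunits are encoded in the nucleus, and the promoters of these genes are known for binding sites of NRF-1, of ETS family factors such as GABP, of YY1 and of CREB. Several subunits have a ubiquitous isoform and an isoform made mainly in muscle, testis or a few other tissues.

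The following promoter sequences come from RefSeq (build GRCm38.p6, the assembly known as mm10). A Myc-Tag summit lay within 1 kb of an end of the first 5 of these genes, among them the tallest so placed at any member. Atp5b and Uqcrc1 had none within 1 kb and are shown beside them. Each runs 5′ to 3′ along the gene, from 250 bases before the listed start to 50 bases after it. Capitals mark, on either strand, TAATT (the core recognized by Dlx proteins), the NRF-1 motif (GCGCA and GCGC with any base between them), the ETS motif CCGGAAG, the YY1 motif ATGGCGG and TGACG, the half-site of the cAMP response element (CRE).
Atp5g2: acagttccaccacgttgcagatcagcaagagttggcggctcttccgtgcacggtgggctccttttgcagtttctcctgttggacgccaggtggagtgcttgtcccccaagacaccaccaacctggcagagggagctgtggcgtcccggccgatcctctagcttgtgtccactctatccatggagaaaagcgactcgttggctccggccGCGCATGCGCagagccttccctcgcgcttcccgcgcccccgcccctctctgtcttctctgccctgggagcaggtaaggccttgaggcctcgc
Ndufa10: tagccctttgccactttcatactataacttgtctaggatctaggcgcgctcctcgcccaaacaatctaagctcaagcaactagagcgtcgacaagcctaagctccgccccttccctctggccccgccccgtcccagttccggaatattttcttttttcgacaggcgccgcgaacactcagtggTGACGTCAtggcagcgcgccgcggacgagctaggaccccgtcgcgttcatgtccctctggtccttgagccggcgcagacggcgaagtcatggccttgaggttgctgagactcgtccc
Ndufs3: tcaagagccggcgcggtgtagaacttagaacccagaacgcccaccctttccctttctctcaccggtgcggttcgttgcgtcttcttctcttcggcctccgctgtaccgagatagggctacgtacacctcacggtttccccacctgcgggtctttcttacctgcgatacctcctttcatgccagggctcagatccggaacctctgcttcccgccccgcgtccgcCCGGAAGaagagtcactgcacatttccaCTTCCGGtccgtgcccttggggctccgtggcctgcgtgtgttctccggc
Atp5o: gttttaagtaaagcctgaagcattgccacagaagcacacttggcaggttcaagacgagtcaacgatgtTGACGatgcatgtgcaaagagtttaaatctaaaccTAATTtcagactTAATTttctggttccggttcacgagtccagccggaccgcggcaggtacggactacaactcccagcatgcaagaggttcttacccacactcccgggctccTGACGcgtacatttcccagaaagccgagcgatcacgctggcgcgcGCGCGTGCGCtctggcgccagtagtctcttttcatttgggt
Ndufa12: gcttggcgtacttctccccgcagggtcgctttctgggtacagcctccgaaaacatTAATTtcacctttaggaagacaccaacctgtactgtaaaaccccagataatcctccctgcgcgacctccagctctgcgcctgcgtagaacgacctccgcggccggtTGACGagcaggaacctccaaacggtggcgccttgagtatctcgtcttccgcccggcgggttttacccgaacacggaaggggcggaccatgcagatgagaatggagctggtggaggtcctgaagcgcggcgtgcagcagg
Atp5b: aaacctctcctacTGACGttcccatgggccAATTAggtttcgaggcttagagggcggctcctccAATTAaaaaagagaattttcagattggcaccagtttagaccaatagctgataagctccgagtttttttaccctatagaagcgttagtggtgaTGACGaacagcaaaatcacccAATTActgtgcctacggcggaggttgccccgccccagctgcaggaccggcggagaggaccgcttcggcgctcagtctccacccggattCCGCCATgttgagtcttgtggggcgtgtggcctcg
Uqcrc1: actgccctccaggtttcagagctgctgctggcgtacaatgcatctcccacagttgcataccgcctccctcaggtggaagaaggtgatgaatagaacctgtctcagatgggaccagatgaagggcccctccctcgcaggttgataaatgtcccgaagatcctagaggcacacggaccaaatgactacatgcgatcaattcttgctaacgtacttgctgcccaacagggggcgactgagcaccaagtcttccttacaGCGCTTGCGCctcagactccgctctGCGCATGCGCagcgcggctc
The windows of Atp5g2 (chr15:102670998-102671297, minus strand), Ndufa10 (chr1:92473709-92474008, minus), Ndufs3 (chr2:90904672-90904971, minus), Atp5o (chr16:91931581-91931880, minus) and Ndufa12 (chr10:94198785-94199084, plus) each overlapped a called interval. For Atp5b (window at chr10:128083057-128083356, plus) the nearest summit was 24603 bp from an end of the gene, and for Uqcrc1 (chr9:108936398-108936697, plus) it was 104919 bp away. Ndufa10 carried the complete palindromic CRE, in which the half-sites of both strands overlap, 67 bases before its start. Atp5g2 carried an NRF-1 match 42 bases before its start, and Ndufs3 carried an ETS match on either side of its start. These matches are descriptions of the letters and not binding sites. The windows shown are not a representative sample of the members. Atp5o, Ndufa12 and Atp5b carry TAATT, which was in 13.6% of windows of members with a summit and 17.1% of those without.

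The analysis asked whether a Myc-Tag summit, the highest point of a called interval, lay within 1 kb of either end of each gene. By this rule, 25 of the 106 genes (23.6%, 95% Wilson interval 16.5 to 32.5%) had a summit, against 11.3% of all autosomal protein-coding genes (2345 of 20665). Each of the 25 genes had 1 interval, and the 25 intervals were separate. Intervals of shares cover counting error only, and since the genes of 1 library are not replicates, no p-value was computed. The share lay below that of the mitochondrial ribosomal protein genes, with 29 of 78 (37.2%, 27.3 to 48.3%), and close to that of the proteasome subunit genes, with 11 of 50 (22.0%, 12.8 to 35.2%), and the Wilson intervals of all 3 lists overlapped.

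The complexes differed in how many of their genes had a summit. Complex V had 6 of 17 (35.3%, 17.3 to 58.7%) and complex I 14 of 47 (29.8%, 18.7 to 44.0%). Both lower limits were above the 11.3% of all genes, but below the 19.4% of all genes with a CpG-rich promoter (a ratio of observed to expected CpG of at least 0.6), the kind that most members have. Complex IV had 4 of 26 (15.4%, 6.15 to 33.5%) and complex II 1 of 8 (12.5%, 2.24 to 47.1%), which is near the background. No summit was called at complex III, with 0 of 8 genes, a count that allows at most 37.5%. The Wilson intervals of the 5 complexes overlapped one another, so no complex stood apart from another at this number of genes.

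**Figure D1:**
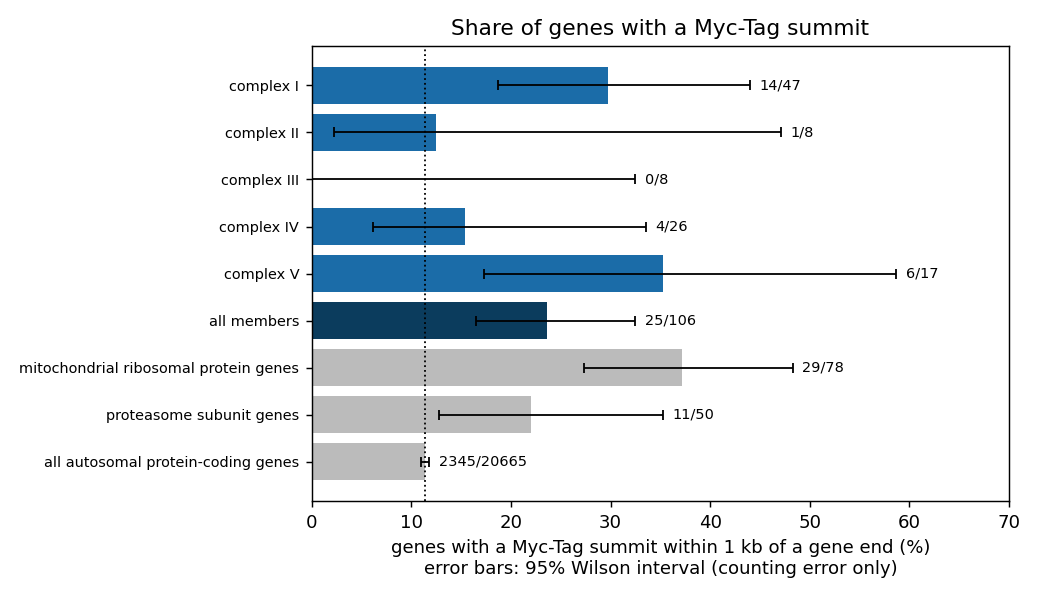
Share of genes with a Myc-Tag summit within 1 kb of a gene end (horizontal axis, percent) for complexes I to V, all members and 3 reference sets, with the number of genes at each bar. Error bars are 95% Wilson intervals, the dotted line marks the 11.3% of all autosomal protein-coding genes, and the intervals of complexes I and V lie above it but include the 19.4% of all genes with CpG-rich promoters, which is not drawn.

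In complex I, genes with a summit were found among the Ndufs, Ndufa, Ndufb and Ndufc genes and the assembly factors, but not among the Ndufv genes. Of the 7 core subunits on the fixed list, which carry the flavin and the iron-sulfur clusters or bind ubiquinone, Ndufs1, Ndufs3 and Ndufs7 had a summit (42.9%, 15.8 to 75%), with heights of 12, 24 and 22. That interval lay above the 11.3% of all genes but included the 19.4% of all genes with a CpG-rich promoter. Ndufs1 is the large iron-sulfur subunit next to the NADH site, and Ndufs7 holds the last cluster before ubiquinone. Among the accessory subunits, which surround the core, 4 of 14 Ndufa genes (Ndufab1 counted) had a summit (28.6%, 11.7 to 54.6%). They were Ndufa10, Ndufa11, Ndufa12 and Ndufa13, with heights of 27, 17, 17 and 27. Of 12 Ndufb genes, whose products sit in the membrane arm, 4 had a summit (33.3%, 13.8 to 60.9%). They were Ndufb1 at a height of 15, Ndufb3 at 14, Ndufb5 at 16 and Ndufb7 at 19. The intervals of the Ndufa and Ndufb shares included the 19.4% of all genes with a CpG-rich promoter. Ndufc2 had a summit of 24 and Ndufc1 had none. None of the 3 Ndufv genes, which include the flavin-binding subunit Ndufv1, had a summit within 1 kb. Among the 8 complex I assembly factors, Ndufaf1 had a height of 23 and Ndufaf3 of 12. Ndufb4b and Ndufb4c are close copies of Ndufb4, and none of the 3 had a summit. How far reads can be placed uniquely among these copies was not examined.

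In complex II, the only gene with a summit was Sdhc, which encodes a membrane anchor of the enzyme, at a height of 13. Sdha and Sdhb, which form the catalytic head, and the other anchor, Sdhd, had their nearest summits at 259983, 3465 and 13511 bp from a gene end. The one nearest to an end of Sdhb lay inside the gene, at a height of 31, and was not counted by the rule. The 4 Sdhaf assembly factors had none within 1 kb. In complex III, Uqcrc2 came nearest, at 34557 bp. The gene of its catalytic iron-sulfur protein, Uqcrfs1, was 428732 bp from the nearest summit.

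In complex IV, 3 of the 4 genes with a summit encode assembly factors, and 1 encodes a subunit. The assembly factors were Cox20 with a height of 19, Cox18 with 15 and Cox16 with 11, and Cox18 and Cox20 are known to act on the mitochondrially encoded subunit that receives electrons from cytochrome c. The subunit was Cox4i1, the ubiquitous isoform of subunit IV, at a height of 16. Thus 3 of 9 assembly factors and 1 of 17 subunits of complex IV had a summit. Among all autosomal protein-coding genes 11.3% had one, and these small counts were not tested against each other. Over all complexes the shares were alike, at 5 of 21 assembly factors (23.8%, 10.6 to 45.1%) and 20 of 85 subunits (23.5%, 15.8 to 33.6%).

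Among the ubiquitous isoforms Cox4i1, Cox6a1, Cox6b1, Cox7a2, Cox8a and Ndufa4, 1 of 6 had a summit (16.7%, 3.01 to 56.4%). The 7 isoforms restricted to fewer tissues, Cox4i2, Cox6a2, Cox6b2, Cox7a1, Cox8b, Cox8c and Ndufa4l2, had 0, a count that allows at most 42.9%. Among all autosomal protein-coding genes 11.3% had one. These counts are too small to separate the lists from that share or from each other. The nearest summit was 8886 bp from Cox8a and 14614 bp from Cox7a1, the heart and skeletal muscle isoform.

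In complex V, each group of genes by role held a gene with a summit. The groups were the F1 part (head and central stalk), the c-ring, the peripheral stalk and the other membrane subunits. Of the 5 F1 genes, Atp5e, for the small epsilon subunit of the central stalk, had a height of 18. The genes of the alpha and beta subunits, which form the head, Atp5a1 and Atp5b, had none within 1 kb. Of the 3 genes for the c-ring, which encode the same mature protein, Atp5g2 had a height of 28, and Atp5g1 and Atp5g3 were 238425 and 522031 bp from a summit. Of the 4 peripheral stalk genes, Atp5o and Atp5pb had heights of 15 and 21. Of the 5 other membrane subunit genes, Atp5j2 had a height of 16 and Atp5l of 14. The Wilson intervals of these groups overlapped one another, and all included the 19.4% of all genes with a CpG-rich promoter. No role thus stood apart from another at this number of genes. The division of complex V by role was made after the values were seen, and it is given without a test.

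The height of a summit is a whole number deposited without a stated normalization. Over the 25 member intervals the lowest was 11, the median 17 and the highest 28. All 2024 autosomal intervals within 1 kb of a protein-coding gene end had a median of 16 and quartiles of 13 and 19. The member heights therefore lay within the range of other gene-end intervals, and 16 of 25 (64.0%) were at or above 16, the median of all 3477 summits, against 50.4% of the 2024 intervals. Such a summit was within 1 kb of 15.1% of the 106 members and of 6.01% of all autosomal protein-coding genes. By complex, the lowest, median and highest heights were 12, 18 and 27 in complex I, 11, 15.5 and 19 in complex IV, and 14, 17 and 28 in complex V. The ranges overlapped. The mitochondrial ribosomal protein intervals had a median of 19 (range 12 to 47), and the proteasome intervals a median of 17 (12 to 31).

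**Figure D2:**
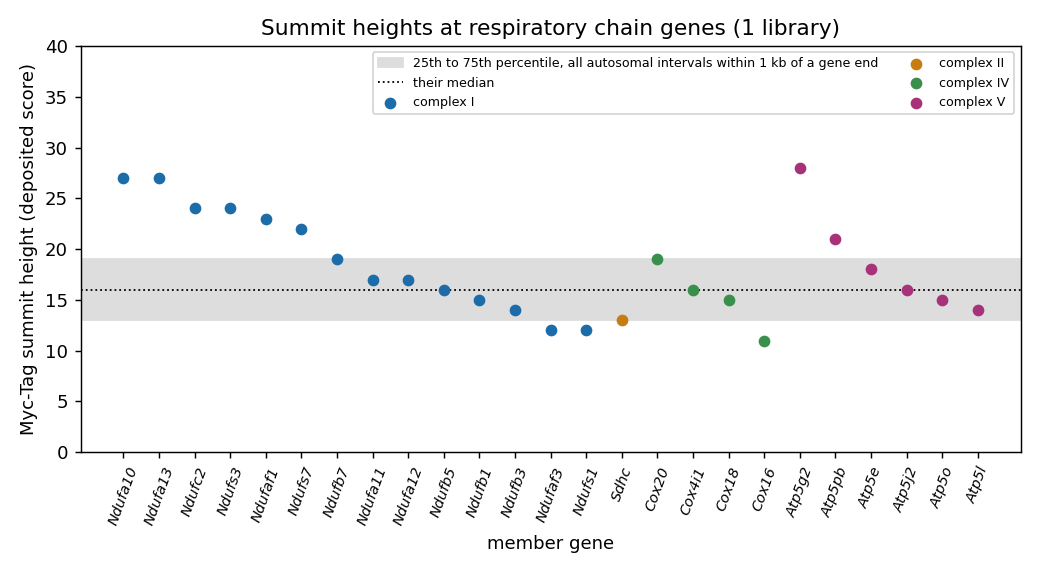
Myc-Tag summit height (vertical axis, deposited score) at each of the 25 respiratory chain genes with a summit (horizontal axis), colored by complex, from 1 library. The grey band and dotted line give the quartiles (13 and 19) and the median (16) of all autosomal intervals within 1 kb of a gene end, and 8 genes lie above the band, from Atp5pb at 21 to Atp5g2 at 28.

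The tallest summit within 1 kb of a member's end was that of Atp5g2, at 28, on chromosome 15 from 102670625 to 102671560. Of all Myc-Tag summits, 5.18% were higher. Genes on chromosome 15 had a summit more often than those of any other autosome (21.3%, against 7.19% to 14.2%), and of the 6 members on it only Atp5g2 had one. The study names an extra copy of this chromosome as the sole recurring karyotype change in its lymphomas. The part of the chromosome, or of its copy number, in this share and in the height at Atp5g2 was not tested. Next came Ndufa10, whose interval on chromosome 1 ran from 92473323 to 92474081, and Ndufa13, on chromosome 8 from 69901286 to 69902112. Both had a height of 27, exceeded by 6.04% of summits. Ndufa13 is the complex I subunit also known as a regulator of cell death, and its interval was nearer to an end of the testis kinase gene Tssk6. Ndufc2, on chromosome 7 from 97399841 to 97400397, and Ndufs3, on chromosome 2 from 90904281 to 90905000, had a height of 24. The assembly factor Ndufaf1 followed with 23 on chromosome 2 from 119662494 to 119663207. Then came Ndufs7 with 22 on chromosome 10 from 80248773 to 80249888, and Atp5pb with 21 on chromosome 3 from 105958747 to 105959507. Ndufb7 and Cox20 had 19, and the Cox20 interval, from 178317824 to 178319793 of chromosome 1, was with 1970 bp the widest of the members. The other widths were down to 461 bp at Cox16, with a median of 759 bp over the 25.

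None of the 25 member intervals was called in the input. This is no strong contrast, because of the 3297 Myc-Tag summits up to a height of 28 only 2 lay in intervals called in the input, so a call there was rare at these heights for any gene. The height of the input at the members was not analysed here.

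The summits lay close to the ends of the genes. The median distance to the nearer end was 127 bp, from 3 bp at Ndufc2 to 862 bp at Ndufa13, and 22 of the 25 were within 350 bp. The 3 genes nearest to the limit of 1 kb on its inner side were Ndufa13 at 862 bp, Cox18 at 627 bp and Ndufaf3 at 556 bp. On its outer side came Atp5h at 2347 bp, Ndufa2 at 2396 bp and Sdhb at 3465 bp, so that no member lay between 1 and 2 kb. The summit at Sdhb was inside the gene. Of the 81 genes without a summit within 1 kb, 6 had one within 10 kb and 75 had none, and their median distance was 127650 bp. The curves of distance for members and for all genes differed, with more of the members at each of the distances computed, such as 29.2% against 18.6% within 10 kb and 56.6% against 46.9% within 100 kb.

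**Figure D3:**
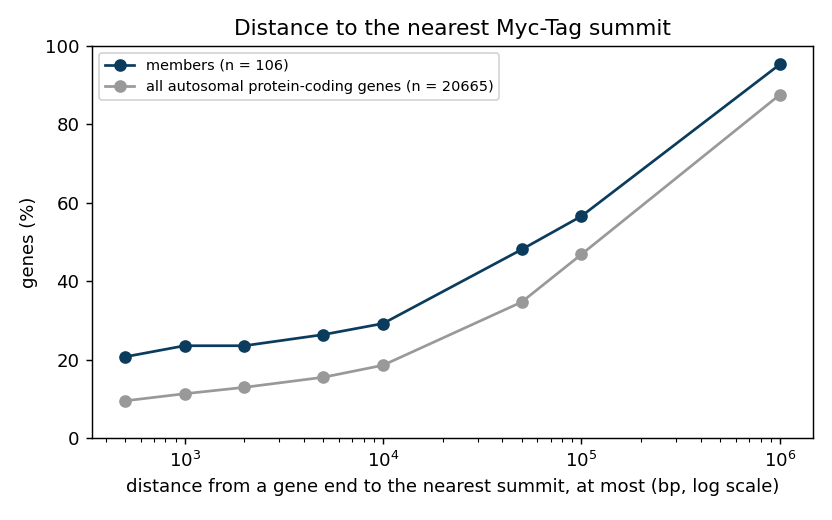
Percent of genes (vertical axis) whose nearest Myc-Tag summit lies within a given distance of a gene end (horizontal axis, bp, log scale), for the 106 members and for all 20665 autosomal protein-coding genes. The members lie above all genes at each distance, with 23.6% against 11.3% at 1000 bp.

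Of the 25 genes, 21 were in the promoter table and thus had a strand and a listed start. All 21 summits lay within 1 kb of a start, with 14 upstream and 7 downstream and a median of -43 bp. Of these, 14 fell into the window of 250 bases before to 50 after the start, that is, into the stretch shown above for Atp5g2, Ndufa10, Ndufs3, Atp5o and Ndufa12. The extremes were Cox20, at -993 bp from its listed start though 65 bp from the outer end of the gene, and Ndufaf3, at 556 bp inside the gene. Of all autosomal protein-coding genes in the table, 12.1% had a summit within 1 kb of a start, and of the 86 members in it 24.4% did. For Ndufs1, Sdhc, Cox18 and Cox4i1 no strand was used.

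**Figure D4:**
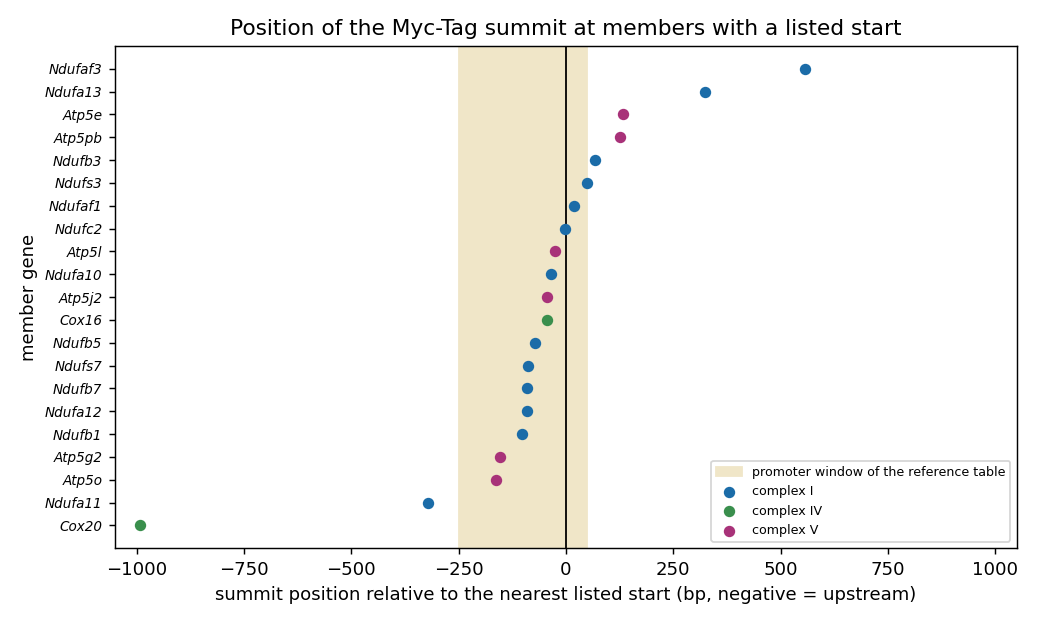
Position of the Myc-Tag summit relative to the nearest listed start (horizontal axis, bp, negative upstream) at the 21 members with a listed start (vertical axis), colored by complex. The shaded band is the promoter window from -250 to 50 bp, which holds 14 of the 21 summits.

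Respiratory chain genes tend to lie next to another gene. An end of another protein-coding gene was within 1 kb for 57 of the 106 members (53.8%), against 25.6% of all autosomal protein-coding genes. Genes with such a neighbor had a summit more often, at 19.7% against 8.47% of those without. Among members the shares were 24.6% (15.2 to 37.1%) with a neighbor and 22.4% (13.0 to 35.9%) without. The interval of the members without a neighbor lay above the corresponding share of all genes, while that of the members with a neighbor included it. Neither comparison was matched for CpG content, in which members and all genes differ, as given below. Of the 25 genes with a summit, 11 shared it with another gene end. Examples are Ndufb1 with Cpsf2, a cleavage factor of mRNA ends, Ndufs1 with Eef1b2, a translation elongation factor, Atp5pb with Wdr77, Ndufs3 with Kbtbd4 and Ndufb5 with the mitochondrial ribosomal protein gene Mrpl47. The share of shared summits was 44.0%, against 33.5% of all 2345 genes with a summit. Shared summits had a median height of 16 (12 to 27) and the other 14 a median of 18.5 (11 to 28). For Ndufa11, Ndufa13, Ndufb1, Ndufs1 and Cox4i1 the nearest gene end belonged to the neighbor, and which gene such an interval serves cannot be told apart.

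Most promoters of the members were rich in CpG. The ratio of observed to expected CpG had a median of 0.889 in the 22 windows of members with a summit and of 0.825 in the 70 windows of members without, against 0.586 in all 20085 windows of autosomal protein-coding genes. Windows of all genes with a summit had 0.831, and those without had 0.521. Among genes with a window at or above 0.6, 19.4% of all genes had a summit, and 18 of 74 members did (24.3%, 16 to 35.2%). The interval of the members thus included the share of all genes with such promoters. The part of CpG content in the higher share of members was not tested beyond these values.

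The motifs were searched in the same windows, on both strands, and their letters may overlap. TAATT was found in 3 of 22 windows of members with a summit (13.6%, 4.75 to 33.3%), in 12 of 70 windows of members without (17.1%, 10.1 to 27.6%) and in 23.3% of all windows. Over all genes it was in 15.5% of windows with a summit and in 24.3% of those without. In these windows the letters TAATT were thus not more frequent for genes with a summit. The windows do not cover whole intervals, and those of members held 14 of 21 summits. Their base content also differed, with a median GC of 62.3% in windows of all genes with a summit and 56% in those without. The part of base content was not tested. The study's own motif search reported mostly TAATT in the Dlx5 consensus, and that search was not repeated here. The 3 members with a summit and a match were Atp5o, Ndufa12 and Cox16. In Atp5o, as printed above, TAATT occurs 147 and 135 bases before the start, and these matches were 15 and 27 bp from the summit. In Ndufa12 the match 195 bases before the start was 100 bp from the summit, and in Cox16 the match was 333 bp from the summit and outside the interval. The promoter of Atp5b, which had no summit, carried 3 matches.

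The motifs of the known regulators were also more frequent in windows of all genes with a summit than in all windows, and the like group for members with a summit is therefore all genes with a summit. The ETS motif was in 36.4% (19.7 to 57.0%) of windows of members with a summit and in 28.6% (19.3 to 40.1%) of those without, against 23.3% of windows of all genes with a summit and 11.9% of all windows. NRF-1 was in 13.6% (4.75 to 33.3%) and 27.1% (18.1 to 38.5%), against 10.2% and 6.55%. YY1 was in 13.6% (4.75 to 33.3%) and 17.1% (10.1 to 27.6%), against 10.96% and 5.29%. The half-site of the CRE was in 45.5% (26.9 to 65.3%) and 32.9% (23.0 to 44.5%), against 35.4% and 24.0%. For ETS, NRF-1, YY1 and the CRE half-site, the interval of the members with a summit included the share of all genes with a summit. In windows of all genes without a summit the shares were 10.4% for ETS, 6.07% for NRF-1, 4.55% for YY1 and 22.5% for the CRE half-site. The intervals of the members without a summit lay above these, though for the CRE half-site only by the margin between 22.5% and 23.0%. The letters of these motifs all contain CpG, and the median CpG ratio was 0.825 in windows of members without a summit against 0.521 in those of all genes without. The part of CpG content in these shares was not tested. For each of the 5 motifs, the Wilson intervals of members with and without a summit overlapped, so the motifs did not separate them at this number of windows.

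**Figure D5:**
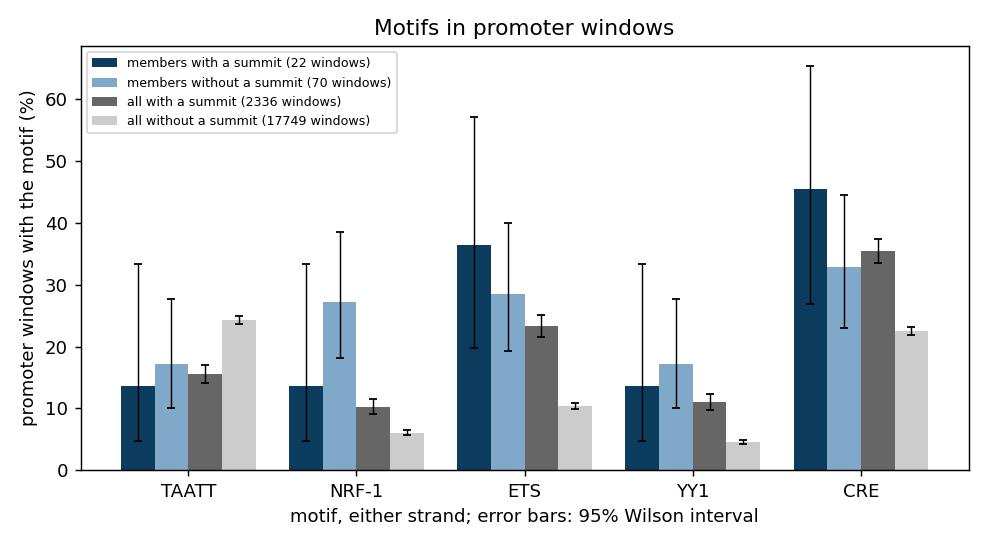
Percent of promoter windows (vertical axis) that hold each motif on either strand (horizontal axis), for members and for all autosomal protein-coding genes, with and without a summit. Bars carry 95% Wilson intervals, and ETS is in 36.4% of member windows with a summit while TAATT is in 13.6%.

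Outside the symbol rule, a fixed list of other genes of the pathway had 9 of 37 autosomal genes with a summit (24.3%, 13.4 to 40.1%). That interval lay above the 11.3% of all genes but included the 19.4% of all genes with a CpG-rich promoter. On this list the tallest was Lrpprc, at 37, which encodes a protein that stabilizes mitochondrial mRNA. Vdac2 and Vdac1, channels of the outer membrane, had heights of 26 and 19, and Slc25a4, an ADP/ATP carrier, had 14. Factors that build the complexes followed, with Sco2 at 24, Lyrm7 at 19, Oxa1l at 18, Ttc19 at 17 and Atpaf1 at 13. Cyc1 and Cycs, which encode cytochromes of the chain, had none within 1 kb. Among 13 regulators of nuclear respiratory genes, 3 had a summit (23.1%, 8.18 to 50.3%), an interval that includes the 11.3% of all genes. These were Gabpb2 at 32, Nrf1 at 18 and Ppargc1a at 12. None of these intervals was called in the input.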

How the data were processed

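The data are 1 Myc-Tag ChIP library and 1 input library. The authors deposited 5 browser tracks, which are summits and intervals for either library and the active regions. The deposited score of a summit is its height, whose normalization is not stated. The methods state that Active Motif performed the assay on an Illumina GA II and called peaks by MACS p-value, and the submitters' processing notes name BWA and mm9. The MACS version, its control and threshold are not given in the sources used here. The coordinates were read as mm10, because the file holds an interval on chromosome Y from 90812086 to 90813302, which is beyond the end of that chromosome in mm9. Summit positions are rough to about 16 bp, as 3329 of 3477 were multiples of that number.

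Each summit was joined to its interval, and genes, strands and promoter windows came from RefSeq tables of GRCm38.p6. Of the 106 members 86 matched the promoter table. The members and gene lists were chosen with earlier results of these data known, and the CpG threshold, the division of complex V and the added alternatives after the values were seen. Genes were named by rule, as all members with a summit, with full values for the 10 tallest, for the 3 nearest to the distance limit on either side and for the fixed lists. Shares have 95% Wilson intervals. For a count of 0 the limit is 3 counts of the total. Depth is unknown. The software was Python 3.11.15 with pandas 2.3.3, numpy 2.4.6 and matplotlib 3.10.9, and the assignment of summits was tested on simulated data. Alternatives were other distances, height thresholds and gene sets. Motifs in whole intervals were not searched, since genome sequence was not used here.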

Additional observations from a re-analysis of the deposited data

How the results depend on the processing

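Of 77 values recomputed under an alternative, 63 stayed within 1.5 times the reported count, or kept the median height, and 14 did not. Some of the 63 could not have moved. No member interval was called in the input, so leaving out such intervals could change no member value. Complex III had no summit to lose under a stricter rule. Ndufa4 and the restricted isoforms had no summit, so moving or dropping them could change no count. The number of respiratory chain genes with a summit was 22 within 500 bp, 25 within 2 kb, 28 within 5 kb, 20 when an interval counted for its nearest gene alone, and 21 of 86 with starts only. Most of the values that moved came from a threshold on the height, which leaves fewer intervals by construction. At or above the median height there were 16 genes, with 0 in complex II and 2 in complex IV. At or above the 75th percentile there were 10 genes, with 7 in complex I, 0 in complex II, 1 in complex IV and 2 in complex V. Starts only, with fewer genes, gave 0 in complex II and 2 in complex IV, a distance of 5 kb gave 2 in complex II, and leaving out the assembly factors left 1 in complex IV. Without chromosome 15 the median height was 16.5 in place of 17. The share of all genes was 19.4% in place of 11.3% when only CpG-rich promoters were taken, an alternative chosen after seeing the data, as were those on restricted isoforms and on Ndufa4. No paired analysis was possible because the ChIP and the input were sequenced from 1 library each, which also leaves no replicate to omit. The search of TAATT in whole intervals was not run. Where no summit was called, binding below the calling threshold was not detectable.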

Other observations

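Members with a summit were unevenly spread over the genome, although the counts per chromosome are small. On chromosome 1, 5 of 8 members had a summit (Ndufa10, Ndufb3, Ndufs1, Sdhc and Cox20), against 11.9% of all protein-coding genes of that chromosome, and on chromosome 8 all 3 had one (Ndufa13, Ndufb7 and Cox4i1), against 11.6%. No summit lay at the 8 members on chromosome 19, the 7 on chromosome 11 or the 7 on chromosome 13, where 11.8%, 10.8% and 14.2% of all genes had one. These chromosomes were picked after the values were seen, and no test was made.

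The genes of the same symbol families on chromosome X, Ndufa1, Ndufb11 and Cox7b, were left out by the rule, and no summit lay within 1 kb of any of the 3. The median gene length of the members was 7502.5 bp, against 17491 bp for all autosomal protein-coding genes, and it was 7838 bp for members with a summit and 7131 bp for those without.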
